A study of Mus musculus with 4 samples.

Results

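The genes described here are 10 members of the Slit, Robo, netrin and plexin guidance families: the ligands Slit2, Slit3, Ntn1, Sema3e and Sema6d and the receptors Robo1, Robo2, Robo4, Unc5b and Plxnd1. They are a part of these families, taken from 18193 genes on the array, and were chosen with earlier results of these data known. Each was read on the probe set that carried its symbol alone and had the highest mean. Guidance ligands are secreted or membrane proteins first known from growing axons. Slits bind Robo receptors, netrins bind Unc5 and Dcc family receptors, and semaphorins bind plexins, often with neuropilins as co-receptors. In vessels the best known members are Plxnd1, the receptor for Sema3e on endothelium, Robo4, an endothelial Robo, and Unc5b, a netrin receptor that also binds Robo4.

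Total RNA came from mouse Flk-1+ cells that were sorted into Etv2-Venus positive cells (Etv2+, 2 arrays) and Etv2-Venus negative cells (Etv2-, 2 arrays), with arrays numbered 1 and 2 in each. Both populations derived from TT2 embryonic stem cells carrying 1 Venus reporter knocked into Etv2, so all cells were heterozygous at that locus, and both were grown to day 5 on the stromal line OP9, which comes from mouse bone marrow. The design text gives 4 to 5 days. Flk-1 is the VEGF receptor encoded by Kdr, and Etv2 is an ETS transcription factor of blood and endothelial precursors. The values are log2 expression, on which 1 unit is a 2-fold change, and differences are Etv2+ minus Etv2-. Nothing in the labels ties the arrays to separate cultures. A p-value here thus reflects the scatter of these arrays alone, and that scatter may be technical.

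As a check of the sort, Etv2 measured 12.64 and 12.41 on the Etv2+ arrays and 12.03 and 11.87 on the Etv2- arrays, and Kdr measured 12.64 and 12.81 against 12.51 and 12.68. Etv2 RNA in Etv2- cells was thus at 0.672 of the Etv2+ level (limma adjusted p = 0.185). The name Etv2- stands for the Venus reporter and not for absence of Etv2 RNA. Endothelial markers were higher on both Etv2+ arrays for 11 of 12 genes (median difference 1.01), against 22.4% of all genes. Mesoderm markers were lower on both for 6 of 7 measured (median -1.62), against 17% of all genes. The log2 of the summed endothelial signal was 12.75 and 12.81 in Etv2+ cells and 11.77 and 11.87 in Etv2- cells, and that of the mesoderm signal was 11.68 and 10.96 against 12.93 and 12.40. Markers of OP9 stroma and fibroblasts followed the array number: their summed signal was 11.82 and 10.52 on Etv2+ arrays 1 and 2 and 11.97 and 10.97 on Etv2- arrays 1 and 2.

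The 10 guidance genes went both ways. Plxnd1 and Robo4 stood highest in Etv2+ cells, at 1.79-fold and 1.63-fold the Etv2- level, and Slit2 was also higher on both Etv2+ arrays. Ntn1, Robo1 and Slit3 were lower on both Etv2+ arrays, with Ntn1 at 0.526, Robo1 at 0.663 and Slit3 at 0.725 of the Etv2- level. Unc5b, Sema3e, Sema6d and Robo2 had arrays that overlapped between the populations. The arrays did not overlap in the higher direction for 3 of the 10 genes, against 22.4% of all genes, and in the lower direction for 3, against 17% of all genes. At an unadjusted p under 0.05 in limma there were 2 of 10 higher, against 7.07% of all genes, and 3 of 10 lower, against 4.64%. No guidance gene passed an adjusted p of 0.05 in limma, where 0% of all genes passed. The median difference was 0.04, beside 0.01 over all genes, and 0 of the 10 were 2-fold higher or 2-fold lower, against 0.599% and 0.423% of all genes. Because whole populations were measured, fewer cells expressing a gene and less RNA per cell cannot be told apart.

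**Figure D1:**
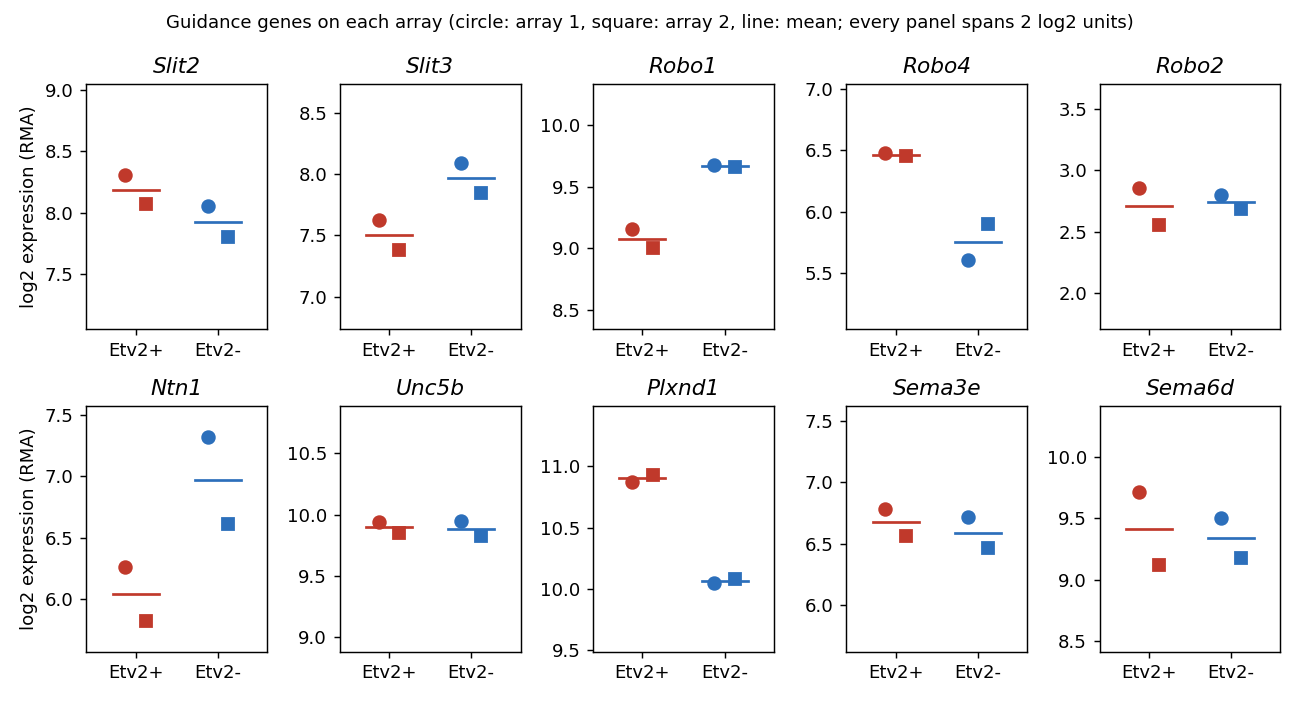
Log2 expression of the 10 guidance genes on each array, Etv2+ (red) left of Etv2- (blue), with circles for array 1, squares for array 2 and lines for the means of 2 arrays; every panel spans 2 log2 units. Plxnd1, Robo4 and Slit2 lie higher on both Etv2+ arrays, Ntn1, Robo1 and Slit3 lie lower on both, and the other panels overlap.

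Promoter sequences are shown for both receptors that were higher in Etv2+ cells, Plxnd1 and Robo4, and for 2 genes that were lower, Robo1 and Slit3, because a sort on an ETS factor raises the question of which of them carry the ETS core letters GGAA near the start. Each line is the RefSeq window of GRCm38.p6 from 250 bases before to 50 after the gene's start, written 5′ to 3′ on the gene's strand, with GGAA and its reverse complement TTCC in capitals. These 2 words cannot overlap each other. Plxnd1 is at chr6:115994956-115995255 (minus strand), Robo4 at chr9:37401722-37402021 (plus), Robo1 at chr16:72662899-72663198 (plus) and Slit3 at chr11:35121206-35121505 (plus).
Plxnd1: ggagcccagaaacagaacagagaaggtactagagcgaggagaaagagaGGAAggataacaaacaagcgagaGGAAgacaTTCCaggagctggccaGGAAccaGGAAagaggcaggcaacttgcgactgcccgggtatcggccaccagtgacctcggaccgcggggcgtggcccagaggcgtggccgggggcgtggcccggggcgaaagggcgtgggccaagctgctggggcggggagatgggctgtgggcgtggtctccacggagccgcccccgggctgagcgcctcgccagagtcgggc
Robo4: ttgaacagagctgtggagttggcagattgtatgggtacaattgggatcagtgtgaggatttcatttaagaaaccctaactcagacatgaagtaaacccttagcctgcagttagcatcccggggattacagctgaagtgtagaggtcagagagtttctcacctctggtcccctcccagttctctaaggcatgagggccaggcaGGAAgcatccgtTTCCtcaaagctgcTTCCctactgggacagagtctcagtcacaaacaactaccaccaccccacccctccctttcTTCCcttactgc
Robo1: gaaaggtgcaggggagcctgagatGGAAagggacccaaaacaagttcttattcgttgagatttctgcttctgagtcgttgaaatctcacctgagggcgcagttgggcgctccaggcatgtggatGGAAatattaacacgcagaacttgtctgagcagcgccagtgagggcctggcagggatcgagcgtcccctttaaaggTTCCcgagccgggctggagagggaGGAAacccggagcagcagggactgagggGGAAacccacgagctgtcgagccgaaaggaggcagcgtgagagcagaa
Slit3: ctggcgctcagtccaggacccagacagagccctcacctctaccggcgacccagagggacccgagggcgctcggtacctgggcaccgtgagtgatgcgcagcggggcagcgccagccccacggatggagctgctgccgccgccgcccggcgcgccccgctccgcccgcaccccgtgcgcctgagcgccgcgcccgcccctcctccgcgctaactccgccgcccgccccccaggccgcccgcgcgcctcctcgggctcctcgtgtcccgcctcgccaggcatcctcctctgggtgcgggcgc

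The Plxnd1 and Robo1 windows each held 5 matches to GGAA on either strand, and 28.6% of all 32851 windows of that length held at least as many. The Robo4 window held 4, as 46.3% of all windows did or exceeded, and the Slit3 window held 0, with a G and C content of 78.3%. At least 1 match was present in 96% of all windows. By direction, the counts were 5, 4 and 2 for Plxnd1, Robo4 and Slit2, which were higher, and 5 and 0 for Robo1 and Slit3, which were lower. The Slit2 window is not printed, and 84.6% of all windows held at least as many matches as it did. The longer word CCGGAA, present in 14.9% of all windows, was found in none of the 4 printed windows and once in that of Unc5b. CANNTG, the word read by basic helix-loop-helix factors and its own reverse complement, occurred 3 times in the Robo1 window, 2 times in that of Robo4 and 0 times in those of Plxnd1 and Slit3, and 72.3% of all windows held at least 1. A match is a run of letters and not evidence of binding. Of the 10 genes, 9 matched the promoter table, and Ntn1, which was lower, did not.

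Among the ligands, Slit2 and Slit3, large secreted proteins that bind Robo receptors, lay on opposite sides of 0. Slit2 measured 8.30 and 8.07 in Etv2+ cells and 8.05 and 7.80 in Etv2- cells. Etv2+ array 2 exceeded Etv2- array 1 by little, so the populations were only just apart. The difference was 0.26 (SE 0.14, 95% interval -0.11 to 0.63, limma adjusted p = 0.589), and it was 0.25 between the arrays numbered 1 and 0.27 between those numbered 2. It was 0.13 without Etv2- array 2, 0.14 without Etv2+ array 1 and -0.06 with the mean over its probe sets. Slit3 measured 7.62 and 7.38 in Etv2+ cells and 8.09 and 7.85 in Etv2- cells, so both Etv2+ arrays were the lower ones. The difference was -0.46 (SE 0.14, interval -0.83 to -0.10, adjusted p = 0.315), with -0.46 within each array number. Whether the differences of Slit2 and Slit3 themselves differ was not tested.

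Both Slit genes hold a copy of miR-218, a microRNA known to repress Robo1 and Robo2. RefSeq (GRCm38.p6) places the mature strand at chr5:48223966-48223986 within Slit2 and at chr11:35616840-35616860 within Slit3, both on the plus strand. It is shown because the 2 copies give 1 and the same mature sequence while their host genes lay on opposite sides of 0. The capitals mark the seed, bases 2 to 8. The microRNA itself was not measured here.
mmu-miR-218-5p: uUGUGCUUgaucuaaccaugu

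Netrin-1, encoded by Ntn1 and a laminin-related secreted ligand of Dcc and Unc5 receptors, was furthest below 0 of the 10 genes. It measured 6.26 and 5.82 in Etv2+ cells and 7.32 and 6.61 in Etv2- cells. Both Etv2+ arrays were below both Etv2- arrays, and within each population array 1 was the higher one. The mean was 6.04 ± 0.31 in Etv2+ cells and 6.97 ± 0.50 in Etv2- cells (SD, n = 2 arrays each). The difference was -0.93 (SE 0.29, interval -1.68 to -0.18, limma adjusted p = 0.324). It was -1.06 between the arrays numbered 1 and -0.79 between those numbered 2. Leaving out 1 array moved it between -1.28, without Etv2- array 2, and -0.57, without Etv2- array 1, and the mean over its probe sets gave -0.48.

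Sema3e, the secreted ligand of Plxnd1, measured 6.78 and 6.57 in Etv2+ cells and 6.72 and 6.46 in Etv2- cells. The populations overlapped, and array 1 was higher than array 2 in both. The difference of 0.08 had an interval of -0.28 to 0.45, so a change of either sign within those bounds remained possible at this precision. Sema6d, a transmembrane semaphorin that binds A-type plexins, measured 9.71 and 9.12 in Etv2+ cells and 9.50 and 9.18 in Etv2- cells. Its spread between array numbers, 0.59 in Etv2+ cells and 0.32 in Etv2- cells, was larger than the difference of 0.07 between the populations (interval -0.55 to 0.70).

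Of the receptors, Plxnd1 had the smallest p of the 10 genes. Plexin-D1 binds semaphorins and acts in endothelium during vessel patterning. It measured 10.87 and 10.93 in Etv2+ cells and 10.05 and 10.08 in Etv2- cells. The arrays within a population lay within 0.06 of each other, and the populations were well apart. The means were 10.90 ± 0.04 in Etv2+ cells and 10.06 ± 0.02 in Etv2- cells (SD, n = 2 each), a difference of 0.84 (SE 0.09, interval 0.61 to 1.07, limma adjusted p = 0.0698). The adjusted p was 0.039 with robust estimation and a variance trend, where 0.445% of all genes were called higher, and 0.0438 when genes averaging under 6 were left out, where 0.648% were. Plxnd1 was the only one of the 10 genes called under those settings, the second of which did not test Robo2. Of 12 endothelial markers 11 were also higher on both Etv2+ arrays, against 22.4% of all genes. Sox18, an endothelial transcription factor, was at 1.22, Esam, a junction protein, at 1.07 and the secreted protein Egfl7 at 0.97. Flt1, the brightest of these markers, was at 0.70. Their part in the result was not tested.

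Robo4, a Robo known from endothelium, measured 6.47 and 6.45 in Etv2+ cells and 5.61 and 5.90 in Etv2- cells. This signal was dim: the Etv2- mean was 5.75, where the array medians over all probe sets were 5.5 and 5.52. The mean over the 4 arrays was 6.11, and only the Etv2+ arrays were above 6. Both Etv2+ arrays were higher, and they agreed more closely than the Etv2- arrays did. The difference was 0.71 (SE 0.13, interval 0.37 to 1.04, limma adjusted p = 0.14), and it was 0.87 between the arrays numbered 1 and 0.55 between those numbered 2. Robo1, the broadly expressed Slit receptor, went the other way. It measured 9.16 and 9.00 in Etv2+ cells and 9.68 and 9.66 in Etv2- cells. Both Etv2+ arrays were lower, by -0.59 (SE 0.10, interval -0.85 to -0.33, adjusted p = 0.125), with -0.52 between the arrays numbered 1 and -0.66 between those numbered 2. The mean over its probe sets gave -0.19. The mesoderm markers lay lower beside it, with Mesp1, a factor of nascent mesoderm, at -1.64 and the Notch ligand Dll1 at -1.89. Mixl1, the brightest of these markers, was at -0.80 with arrays that overlapped. Their part in the result was not tested. Robo2, a Robo best known from axons and the kidney, measured 2.85 and 2.56 in Etv2+ cells and 2.80 and 2.68 in Etv2- cells. Those values lie close to the lowest on the arrays, 2.16, so no level of Robo2 was resolved in either population.

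Unc5b, a receptor for netrins in endothelium, measured 9.94 and 9.85 in Etv2+ cells and 9.94 and 9.82 in Etv2- cells. The populations overlapped almost fully. The difference was 0.01 (SE 0.10), with a 95% interval of -0.25 to 0.27 that rests on the scatter of these arrays. The changes fitted for Plxnd1 and Robo4 lay outside it. The other Unc5b probe set, with a mean of 8.58, had an interval of -1.30 to 1.19, which includes them. In a pathway where Ntn1 was lower in Etv2+ cells, this receptor measured nearly alike in both populations on the kept probe set.

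**Figure D2:**
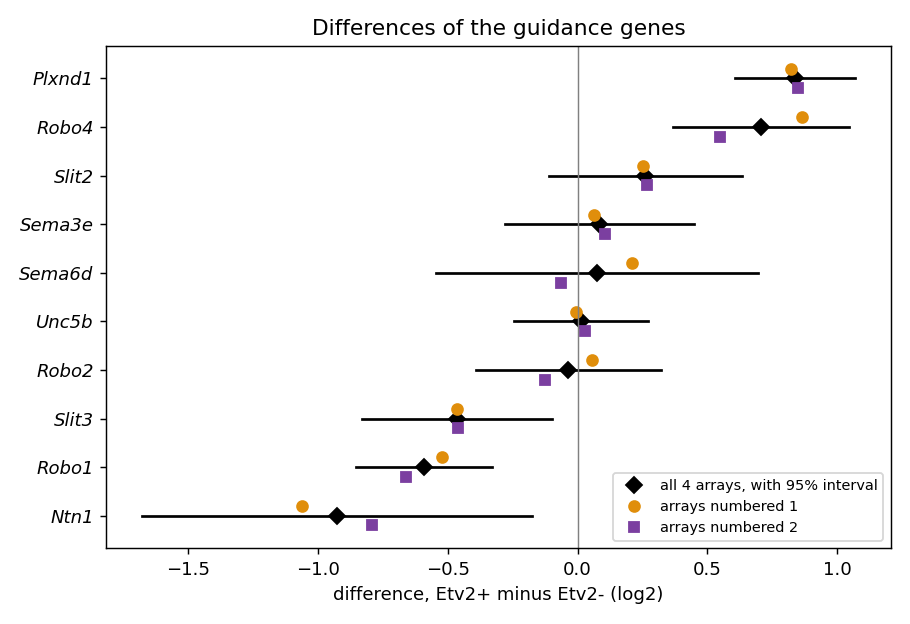
Difference between Etv2+ and Etv2- cells in log2 units for the 10 guidance genes, with black diamonds for the fit to all 4 arrays, lines for its 95% interval, and circles and squares for the difference within the arrays numbered 1 and 2. Plxnd1 and Robo4 have intervals above 0, and Slit3, Robo1 and Ntn1 below 0. Both array numbers agree in sign for all of these, which follows from their arrays not overlapping.

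The 10 genes had 22 probe sets with their symbol alone, and 12 of these were not the one kept. None of the 12 was apart between the populations, against 37% of all probe sets, and 11 had a mean below 6. Robo1 had 2 others, with differences of 0.05 and -0.02 at values from 4.62 to 5.20, so its lower signal in Etv2+ cells was seen on the kept probe set alone. Ntn1 had 1 other, at 3.84 and 3.93 in Etv2+ cells and 4.07 and 3.77 in Etv2- cells. Slit2 had 2 others, 1 at 0.04 and 1 at -0.50 that measured 4.09 and 4.63 in Etv2+ cells and 4.58 and 5.14 in Etv2- cells, opposite in sign to the kept one. The 3 others of Sema3e lay between 0.13 and 0.35, and the 3 others of Sema6d between -0.21 and 0.00. The other Unc5b probe set measured 8.03 and 9.06 in Etv2+ cells and 8.18 and 9.03 in Etv2- cells, so it separated array 1 from array 2 and not the populations. Plxnd1, Robo4, Slit3 and Robo2 had 1 probe set each.

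Of the 10 genes, 8 were higher on array 1 than on array 2 in both populations, against 45.9% of all genes, with a median of 0.23 in Etv2+ cells and 0.18 in Etv2- cells. Plxnd1 was lower on array 1 in both, and Robo4 was not ordered alike. The gap between array numbers was 0.44 in Etv2+ and 0.71 in Etv2- cells for Ntn1. The stroma markers showed gaps of the same sign for 10 of 12 genes, with medians of 0.61 in Etv2+ and 0.57 in Etv2- cells. Such gaps were not limited to stroma markers. Of 5 smooth muscle markers 4 were higher on array 1 in both populations, with medians of 0.26 and 0.33. Of 7 mesoderm markers 4 were higher and 3 lower, and Mixl1 was higher by 1.44 in Etv2+ and 1.67 in Etv2- cells. Lpl, a lipase of adipocyte precursors, measured 10.39 and 8.91 in Etv2+ cells and 10.36 and 9.16 in Etv2- cells. Between the populations the stroma list had a median of -0.22. On both Etv2+ arrays 0 of 12 genes were higher and 2 of 12 lower, against 22.4% and 17% of all genes. The 2 lower genes were Cxcl12 at -0.63 and Col1a1 at -0.54. Col1a1 was at -0.30 with the mean over probe sets and at -0.33 without Etv2- array 1. The part of stromal RNA in the levels of the guidance genes was not tested.

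**Figure D3:**
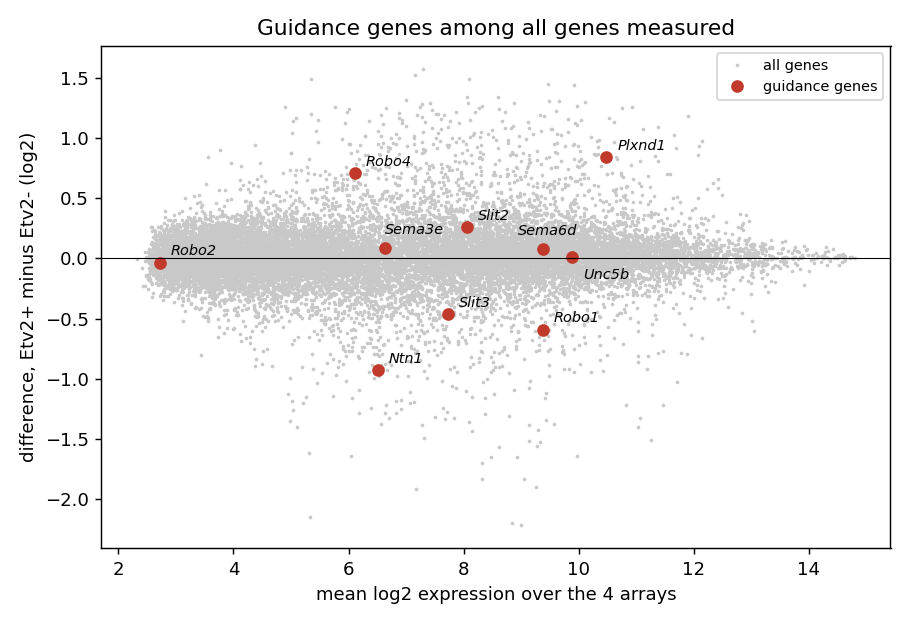
Mean log2 expression over the 4 arrays against the difference between Etv2+ and Etv2- cells in log2 units, for all 18193 genes (grey) and the 10 guidance genes (red). Plxnd1 at 0.84 and Ntn1 at -0.93 lie towards the edges of the cloud, and Robo2 lies at its dim end.

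The wider guidance families were read from 5 lists of 70 genes, all measured, and 0 of the 70 passed an adjusted p of 0.05 in limma in either direction. At an unadjusted p under 0.05 there were 4 higher and 12 lower, against 7.07% and 4.64% of all genes. The arrays did not overlap for 10 higher and 19 lower, against 22.4% and 17% of all genes, and the median was -0.07.

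Among the Slit and Robo partners (8 genes, median -0.16), the Slit-Robo GTPase-activating proteins Srgap2 and Srgap1, which act inside the cell, were higher. Srgap2 measured 9.14 and 9.25 in Etv2+ cells and 8.70 and 8.67 in Etv2- cells, and Srgap1 measured 7.18 and 7.12 against 6.78 and 6.47. Slit1 and Robo3, the remaining members of the Slit and Robo families, were lower, at -0.43 (SE 0.09) and -0.68 (SE 0.22). Slit1 and Slit3 thus lay on the lower side with Robo1 and Robo3, and Slit2 and Robo4 on the higher side. The Slit2 interval of -0.11 to 0.63 included 0, its mean over probe sets gave -0.06, and Robo2 was not resolved. None of these had an adjusted p under 0.05. With the mean over probe sets Robo3 was at -0.34 and Srgap2 at 0.32, and Robo3 was at -0.41 without Etv2+ array 1.

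Among the other netrins, their receptors and the ligands of Unc5 and neogenin (18 genes, median -0.16), 15 had a difference below 0, and 14 had one after quantile normalization or median centring. Over all genes 47% lay below 0, 46.8% after quantile normalization and 36.8% after median centring. Of the 18 genes, 10 had a mean below 6, as did 8014 of all 18193. Some of the 15 lay close to 0, such as Unc5a and Dscaml1 at -0.04 each. Ntn4, a netrin of basement membranes, measured 5.57 and 5.49 in Etv2+ cells and 6.17 and 5.97 in Etv2- cells. Ntn3 was at -0.34 (SE 0.09) on a dim probe set, with a highest value of 3.62. Flrt3, a transmembrane ligand of Unc5 receptors, was at -0.39 (SE 0.12), and Rgmb, a neogenin ligand that is also a BMP co-receptor, at -0.34 (SE 0.12). These 4 had the smallest p of the list and were lower on both Etv2+ arrays. Over the 18 genes the arrays were apart for 5 lower and 1 higher, against 17% and 22.4% of all genes. For the other 12 they overlapped. With the mean over probe sets Ntn4 was at -0.25 and Rgmb at -0.22, and Rgmb was at -0.21 without Etv2+ array 2.

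The other semaphorins (18 genes) had a median of -0.01. Sema5a, a transmembrane semaphorin, measured 7.23 and 7.52 in Etv2+ cells and 7.88 and 8.22 in Etv2- cells. Sema7a, a membrane-anchored semaphorin that binds Plxnc1, measured 7.69 and 7.09 in Etv2+ cells and 8.20 and 7.89 in Etv2- cells. Sema3a, a secreted ligand that uses Nrp1, was on the other side at 0.47 (SE 0.19), and Sema4b was at -0.22 (SE 0.09). With the mean over probe sets Sema5a was at -0.22, against -0.68 on the kept one, and Sema7a at -0.41, against -0.66. Without Etv2+ array 2 Sema7a was at -0.36, and Sema3a was at 0.29 without Etv2+ array 1 or Etv2- array 2.

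Among the other plexins and neuropilins (10 genes, median -0.17), Plxnc1 and Nrp2 were higher on both Etv2+ arrays and Plxna2 and Plxnb1 lower. Plxnc1, the Sema7a receptor, measured 6.21 and 6.18 in Etv2+ cells and 5.35 and 5.79 in Etv2- cells, while its ligand was lower in Etv2+ cells. The difference of Plxnc1 was 0.63 on the kept probe set, 0.24 with the mean over probe sets and 0.40 without Etv2- array 1. Nrp2, a co-receptor for class 3 semaphorins and VEGF-C, measured 11.11 and 10.95 in Etv2+ cells and 10.54 and 10.36 in Etv2- cells. Plxna2 measured 8.73 and 9.01 in Etv2+ cells and 9.40 and 9.88 in Etv2- cells, a difference of -0.77 (SE 0.20), and Plxnb1 was at -0.26 (SE 0.09). Of the 9 plexins measured, Plxnd1 included, 7 had a difference below 0, beside 47% of all genes, and Plxnd1 and Plxnc1 had one above 0. Among the 7, Plxna1, Plxna3, Plxnb2 and Plxnb3 had arrays that overlapped, and Plxna3 at -0.05 and Plxnb3 at -0.06 lay close to 0. The split of the plexins was the same after quantile normalization or median centring, where 46.8% and 36.8% of all genes lay below 0.

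The intracellular effectors (16 genes) had a median of 0.00. Sh3bp1, a Rac-inactivating protein known to act downstream of Plxnd1, measured 6.63 and 6.45 in Etv2+ cells and 6.95 and 7.06 in Etv2- cells. Gipc1, an adaptor that binds the Plxnd1 tail, was at 0.40 (SE 0.17). The collapsin response mediator Dpysl5 was at -0.87 (SE 0.25), and Rnd2 was at 0.23 (SE 0.09). Gipc1 was at 0.21 without Etv2+ array 1 and Dpysl5 at -0.57 without Etv2+ array 2.

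**Figure D4:**
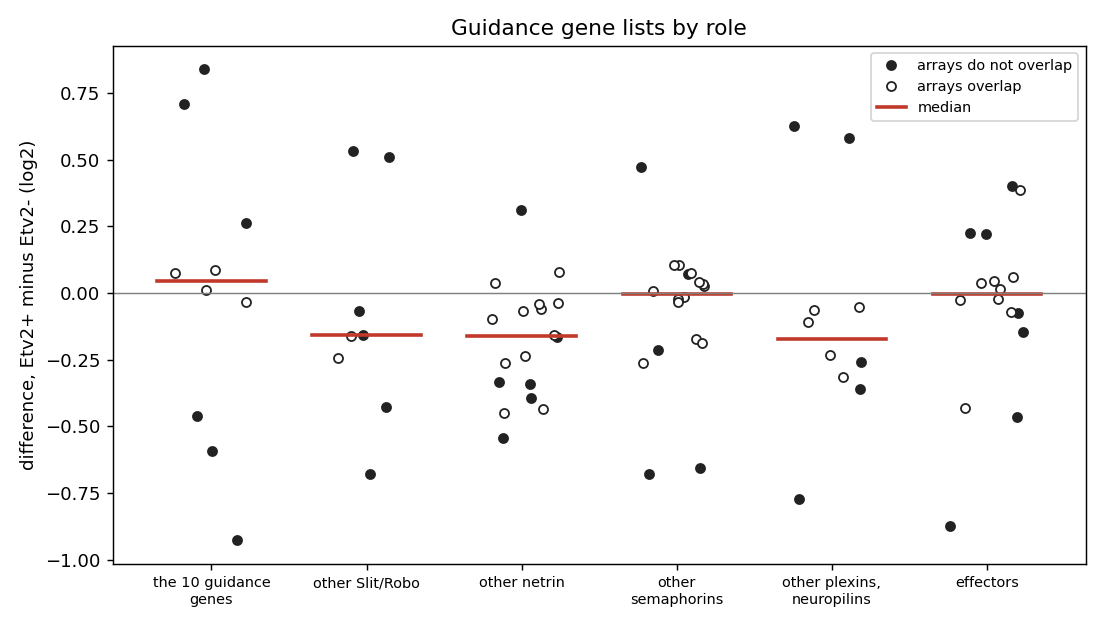
Difference between Etv2+ and Etv2- cells in log2 units for the 10 guidance genes and the 5 lists of related genes, with filled points where Etv2+ and Etv2- arrays were apart, open points where they overlapped, and red lines for medians. The points spread on both sides of 0 in every list, and the medians lie between -0.17 and 0.04.

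Genes whose 4 values, centred on their own mean, ran closest to Plxnd1 were Ets2, Atp2a3, Ckap2l and Smagp, at root mean square distances from 0.02 to 0.04 log2 units among 10178 genes with a mean of at least 6. Ets2, an ETS transcription factor, measured 11.45 and 11.49 in Etv2+ cells and 10.66 and 10.66 in Etv2- cells. The closest to Robo1 were Ldhb, Epcam, Ndrg4 and Lrrc1, at distances from 0.01 to 0.03. Epcam, an epithelial adhesion protein, measured 7.93 and 7.76 in Etv2+ cells and 8.42 and 8.43 in Etv2- cells. With 4 arrays many genes run alike, so this likeness is a description of these arrays.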

How the data were processed

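The data were RNA measurements of 4 arrays in 2 groups of 2, with groups and array numbers from the sample titles. The authors deposited log2 expression per probe set. The submitters' processing notes name RMA and R 2.8.0, and the range of 2.16 to 14.93 gave the log base. RMA makes values relative and compresses differences near background, and the number of arrays limits the precision. Detection calls were not used here. Symbols came from the platform annotation (34945 probe sets with 1 symbol, 932 with several, 9160 unlisted, 64 controls left out), updated through Entrez identifiers with RefSeq (GRCm38.p6, 34741 matched, 0 changed). Each gene was represented by its probe set of highest mean, giving 18193 genes.

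Group was the only term in a limma 3.58.1 model (lmFit, eBayes, R 4.3.3), which had 2 residual and 2.68 prior degrees of freedom. Two-sided tests were used, with Benjamini-Hochberg adjustment over all genes, and 95% intervals came from the moderated t. The fit was tested on simulated data. The genes named were the 10 guidance genes, the sort genes, the 4 with the smallest p of each related list, and of each marker list the 3 brightest and the 2 with the smallest p, of which some are printed. The 10 genes, the lists and the tests were chosen with earlier results of these data known. Figures used matplotlib 3.10.9.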

Additional observations from a re-analysis of the deposited data

How the results depend on the processing

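There were 12 other settings of probe set choice, filter, variance model, normalization, block and arrays. Under them Plxnd1, Robo4, Robo1, Slit3 and Ntn1 kept their direction. So they did within each array number, a comparison chosen after seeing the data. As their arrays did not overlap, neither leaving out 1 array nor comparing within a number could change the sign. The filter, variance model and block leave each difference as it was. Only normalization, and probe set choice for Robo1 and Ntn1, could have reversed a direction. Only Plxnd1 crossed the threshold, under the settings named in the report, and its adjusted p lay between 0.039 and 0.399 over the alternatives. With a variance trend and robust estimation together limma called 81 genes higher and 31 lower, 1 of them a guidance gene. Among genes with a mean of at least 6 it called 66 and 13, again with 1. Without 1 array, 0 guidance genes and 0 related genes were called, and the guidance median lay between -0.11 and 0.15, the lone array of a population being assumed to vary like the other population.

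The deviations of same-numbered arrays correlated at 0.543 over genes, but the labels do not say what the number marks. With the number as a replicate block (1 residual degree of freedom) 0 genes were called, and the adjusted p was 0.0856 for Plxnd1, 0.0949 for Ntn1 and 0.102 for Robo1. The block leaves each difference as it was.

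Some genes changed sign, and not all of these lay near 0. In the fit to all arrays Mixl1 was at -0.800, Col1a2 at -0.338 and Slit2 at 0.260. With the mean over probe sets Slit2 was at -0.0649, Sema6d at -0.0403 and Unc5b at -0.0231. Unc5b was at -0.0239 after quantile normalization and Robo2 at 0.0041 after median centring. Without 1 array, Robo2 lay between -0.185 and 0.114, Sema3e between -0.0437 and 0.212, Sema6d between -0.222 and 0.372 and Unc5b between -0.0489 and 0.0723. Within the arrays numbered 1 Robo2 was at 0.0554 and Unc5b at -0.0062, and within those numbered 2 Sema6d was at -0.0622. Of the marker genes, Col1a2 lay between -1.25 and 0.576 without 1 array, Lpl between -0.849 and 0.622, Mixl1 between -1.63 and 0.0330, Nes between -0.182 and 0.407 and Runx1 between -0.225 and 0.505. The cause was not tested.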
